A study of Mus musculus with 29 samples.

Results

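Genes of the DNA damage response and of DNA repair were followed through 29 mouse samples. The set was a list of 39 gene symbols, and a gene was taken as measured where a probe set of the array listed it alone. This gave 38 of the 39 genes among 18193 genes measured, and Xrcc2 was not analysed here. The samples were 24 primary abdominal neuroblastoma tumours and 5 total bone marrow samples, all labelled as TH-MYCN mice of the strain 129X1/SvJ. In this model a MYCN transgene is driven by the tyrosine hydroxylase promoter and tumours arise in the sympathetic lineage. The groups were 7 tumours labelled wild type caspase-8, 17 tumours labelled deficient caspase-8, 2 marrow samples labelled wild type and 3 labelled deficient. How and in which cells caspase-8 was made deficient, the age of the animals, and whether samples came from separate animals are not stated in the labels. The p-values below therefore refer to the spread among the samples at hand, which may be technical.

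A cell answers DNA damage in steps. Sensors such as the MRN complex find broken ends, the kinases ATM and ATR and their partners CHK2 and CHK1 halt the cycle, and repair then follows a route set by the lesion. Broken ends are rejoined by end joining or copied from the sister chromatid by homologous recombination, crosslinks pass through the Fanconi anaemia pathway, and damaged bases are removed by base, mismatch or nucleotide excision repair. Many of these proteins also serve normal DNA replication, and MYCN-driven neuroblastoma is known for fast proliferation and replication stress.

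Expression values are RMA log2 signals of a 3' array, so a difference of 1 is a doubling, and each gene is read through its probe set of highest mean. Tissue labels held: Th, the catecholamine enzyme tyrosine hydroxylase, lay between 9.33 and 11.9 in tumours and between 3.79 and 4.70 in marrow, while the neutrophil gene S100a8 was at least 13.9 in marrow and between 3.12 and 8.02 in tumours. Casp8 itself had a signal in wild-type tumours of 5.88 ± 0.57 (SD, n = 7), against 5.62 ± 0.44 (SD, n = 17) where the label says deficient. In marrow the corresponding signals were 9.46 ± 0.23 (SD, n = 2) and 9.14 ± 0.12 (SD, n = 3). Whether the Casp8 probe set lies in the altered part of the gene is not given, so these values do not check the genotype labels. Deficient marrow sample 3 stood apart from the other marrow samples: it was the lowest of the 5 in 23 of the 38 repair genes, against 29.6% of all genes. Its mean over 58 cell-cycle genes was 9.63, below the 9.93 to 9.98 of the other 4.

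Repair genes differed between tumour and marrow in both directions. Most base excision, single-strand break and damage-signalling genes were higher in tumours, and the largest increases of the list were in Trp53bp1, Xrcc5, Ung and Atm. The MRN complex, Wrn, Chek2 and 3 of the 5 Fanconi anaemia and post-replication genes on the list were lower. By limma, with Benjamini-Hochberg adjustment over all genes and an adjusted p under 0.05 as the threshold for a call, 18 of 38 genes were higher in tumours and 13 were lower. Of all genes, 34.2% were called higher and 42.2% lower, so the total share called was near the background. The median difference was 0.0096 for the repair genes and -0.10 for all genes. A called change of at least 2-fold was seen in 7 repair genes upwards and in 2 downwards, where 16.8% and 12.6% of all genes had one. In bulk samples, fewer cells of a type and less RNA per cell cannot be told apart.

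**Figure D1:**
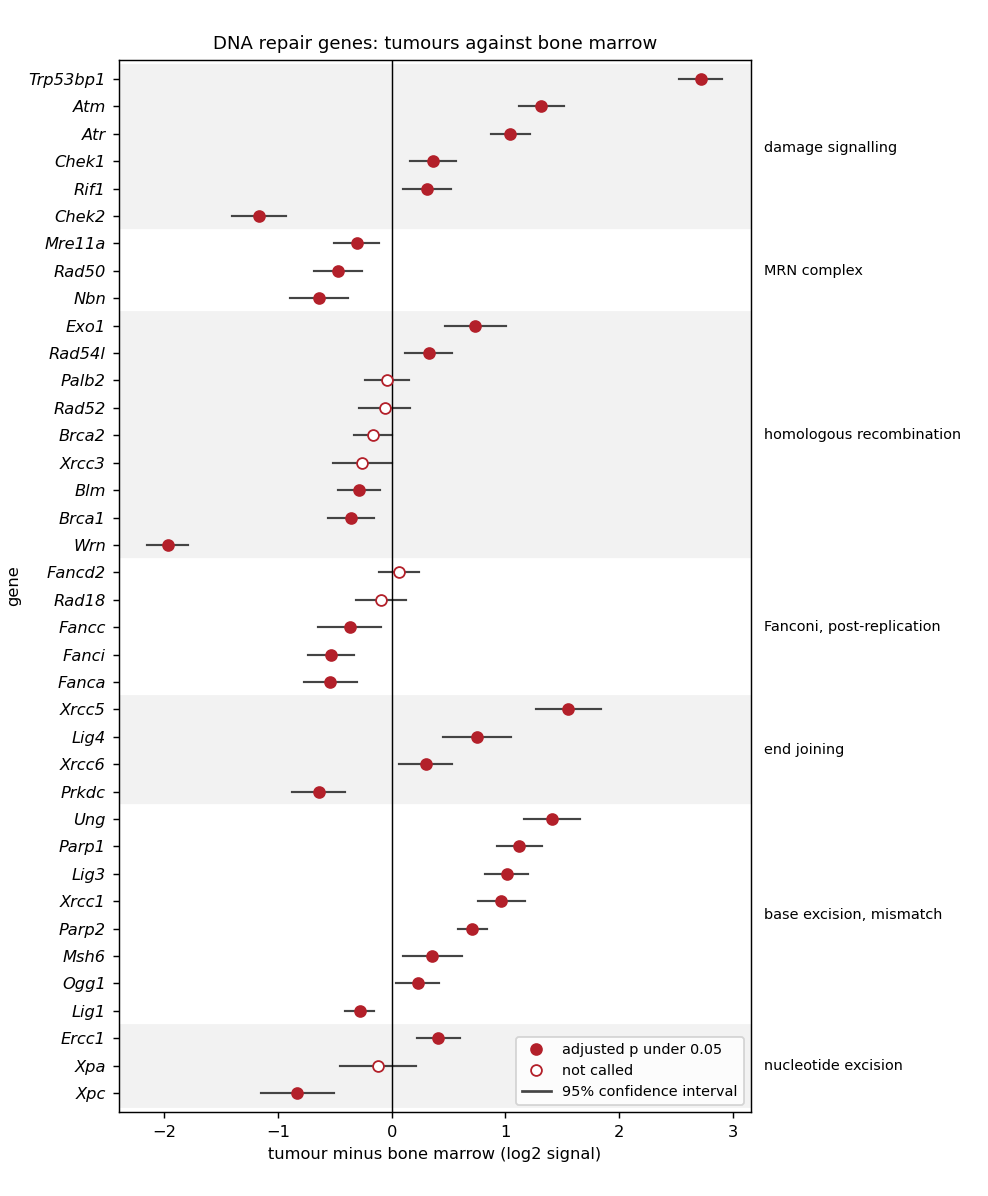
Difference in log2 signal between tumours and bone marrow for each of the 38 repair genes (points, averaged over the 2 genotypes; lines, 95% confidence intervals; 24 tumours and 5 marrow samples), grouped by role; filled points passed the limma threshold. The MRN genes all lie left of 0 and 7 of the 8 base excision and mismatch genes lie right of it, between 2.72 for Trp53bp1 and -1.97 for Wrn over the whole list.

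Of the 6 damage-signalling genes, 5 were higher in tumours and 1 was lower. Trp53bp1 encodes 53BP1, the chromatin-bound protein that steers breaks towards end joining. Its signal lay between 10.46 and 11.17 in tumours with a median of 10.74, against 7.26 and 7.85 in wild-type and 8.66, 8.43 and 8.69 in deficient marrow samples. No tumour reached down to any marrow sample, and the difference was 2.72 ± 0.093 (SE), a 6.57-fold change (limma adjusted p = 2.86e-21). It was 3.27 within wild-type and 2.16 within deficient samples. The SE rests on 1 spread shared by both tissues, while the SD of Trp53bp1 was 0.16 in tumours and 0.61 in marrow. Atm, the kinase that responds to double-strand breaks, ranged from 7.23 to 8.10 in tumours (median 7.90). In marrow it stood at 6.21 and 6.70 (wild type) and at 6.69, 6.67 and 6.59 (deficient). Every tumour was again above every marrow sample, by 1.32 ± 0.095 (SE) on average. Atr, the kinase for stalled forks, had a median of 8.32 (7.92 to 8.51) in tumours. Its marrow values were 7.52 and 7.33 in wild type and 7.22, 7.24 and 6.87 in deficient samples. The groups did not overlap and differed by 1.04 ± 0.083 (SE).

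The downstream kinases differed in direction. Chek2, which ATM activates, was lower in tumours: it ranged from 6.63 to 7.54 there (median 7.28), against 8.37 and 8.62 in wild-type and 8.44, 8.39 and 7.87 in deficient marrow. All tumours lay below all marrow samples, and the difference was -1.17 ± 0.12 (SE; limma adjusted p = 4.17e-10). Chek1, which ATR activates, was higher in tumours by 0.36 and Rif1, an effector of 53BP1, by 0.31. Both overlapped between the tissues. Both lost their call with the mean of all probe sets of a gene, and with all arrays shifted to the same median.

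All 3 genes of the MRN complex, which binds broken ends and recruits ATM, were lower in tumours. Nbn, its regulatory subunit, lay between 6.50 and 7.71 in tumours with a median of 7.35. In marrow it read 8.17 and 7.79 in wild-type and 8.03, 8.18 and 7.72 in deficient samples. The highest tumour fell just short of the lowest marrow sample, and the difference was -0.64 ± 0.12 (SE). Rad50, the structural subunit, ranged from 7.10 to 7.75 in tumours (median 7.51). Its marrow values were 8.05 and 8.09, then 7.91, 8.17 and 7.49, so only deficient marrow 3 fell inside the tumour range. The difference was -0.47 ± 0.10 (SE). Mre11a, the nuclease, was lower by 0.31 ± 0.095 (SE), and this call was lost without wild-type marrow 1 (limma adjusted p = 0.133).

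Homologous recombination, resection and helicase genes were split, with 2 of 9 higher in tumours, 3 lower and 4 not called. Wrn, the RecQ helicase mutated in Werner syndrome, had the largest fall of the whole list. It lay between 6.08 and 6.66 in tumours (median 6.39), and at 8.40 and 8.44 in wild-type and 8.28, 8.50 and 8.02 in deficient marrow. The tissues were separated by more than a log2 unit, and the mean difference was -1.97 ± 0.088 (SE), a 3.92-fold change (limma adjusted p = 2.30e-18). Exo1, the nuclease that resects ends, was higher in tumours by 0.74 and Rad54l, a recombination motor protein, by 0.32. The helicase gene Blm was lower by 0.29 and Brca1 by 0.36.

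The 4 recombination genes that were not called included Brca2, the breast cancer susceptibility gene that acts in strand exchange. It ranged from 8.40 to 8.92 in tumours (median 8.69), and stood at 8.68 and 8.79 in wild-type and 8.90, 8.69 and 9.13 in deficient marrow. The difference of -0.17 had a 95% interval from -0.33 to 0.0045. Palb2, which links BRCA1 to BRCA2, had a tumour median of 7.20 (6.82 to 7.63), and marrow values of 7.11 and 7.25, then 7.21, 7.22 and 7.31. All marrow samples lay inside the tumour range, and the interval of the difference ran from -0.23 to 0.15. Rad52, a strand-annealing protein, spanned 5.51 to 6.50 in tumours (median 6.13). Its marrow values were 6.05 and 6.27 in wild type and 6.36, 5.97 and 6.23 in deficient samples, again all inside the tumour range, with an interval from -0.29 to 0.16. Xrcc3, which also acts in recombination, spanned 4.71 to 5.62 in tumours (median 5.25) and read 5.87 and 5.39, then 5.51, 5.69 and 4.71 in marrow. Its difference was -0.26 with deficient marrow 3 and -0.41 without it, where it was called (limma adjusted p = 0.00242).

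Fanconi anaemia and post-replication genes were lower in 3 of 5 cases and not called in 2. Fanca, a subunit of the core complex, ranged from 6.37 to 7.14 in tumours (median 6.83). It stood at 7.47 and 7.46 in wild-type and at 7.44, 7.39 and 6.78 in deficient marrow. Apart from deficient marrow 3, no marrow sample entered the tumour range, and the difference was -0.54 ± 0.11 (SE). Fanci, the partner of FANCD2, lay between 6.66 and 7.31 in tumours (median 7.02) and at 7.93 and 7.39, then 7.62, 7.68 and 7.11 in marrow. The same marrow sample was the only overlap, and the difference was -0.53 ± 0.098 (SE). Fancc, another core subunit, was lower by 0.37, a call lost when wild-type marrow 1, deficient marrow 1 or deficient marrow 2 was left out, and its probe sets were called in both directions.

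Fancd2 and Rad18 were not called. Fancd2, the protein that is ubiquitinated at crosslinks, spanned 7.004 to 7.71 in tumours (median 7.34). Marrow gave 7.31 and 7.21 in wild type and 7.42, 7.37 and 7.05 in deficient samples. All 5 lay within the tumour range, and the interval of the difference ran from -0.11 to 0.24. Rad18, the ligase that marks PCNA for lesion bypass, spanned 7.09 to 8.08 in tumours (median 7.38) and read 7.66 and 7.38, then 7.50, 7.28 and 7.47 in marrow. The ranges overlapped, with an interval from -0.32 to 0.12.

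End joining was led by Xrcc5, which encodes the KU80 subunit of the end-binding heterodimer. Its tumour signal lay between 7.31 and 8.20 (median 7.82), against 6.87 and 5.87 in wild-type and 6.53, 6.32 and 5.73 in deficient marrow. All tumours were above all marrow samples, by 1.55 ± 0.14 (SE), a 2.93-fold change. Xrcc6, the KU70 partner, was higher by only 0.30, and this call was lost without deficient marrow 3 (0.15, limma adjusted p = 0.167). Lig4, the ligase of the pathway, was higher by 0.75 ± 0.14 (SE). Prkdc, the kinase DNA-PKcs that docks on the heterodimer, went the other way. It ranged from 5.96 to 6.95 in tumours (median 6.57), and stood at 6.93 and 7.24 in wild-type and 7.37, 7.49 and 7.29 in deficient marrow. Wild-type marrow 1 alone touched the tumour range, and the difference was -0.64 ± 0.12 (SE).

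Base excision, single-strand break and mismatch genes were higher in tumours in 7 of 8 cases. Ung removes uracil from DNA, and its signal ranged from 7.99 to 8.91 in tumours (median 8.57). Marrow read 7.37 and 7.15 in wild-type and 7.28, 7.06 and 6.70 in deficient samples. The groups did not overlap, and the difference was 1.41 ± 0.12 (SE), a 2.66-fold change. Parp1, the sensor of nicked DNA, lay between 9.69 and 10.39 in tumours (median 10.09) and at 9.05 and 9.15, then 8.77, 8.88 and 8.81 in marrow. Its groups were also separate, by 1.12 ± 0.096 (SE).

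Xrcc1 and Lig3 act together, as scaffold and ligase of single-strand break repair, and both were higher in every tumour than in any marrow sample. Lig3 spanned 7.18 to 7.997 in tumours (median 7.70), against 6.43 and 6.83 in wild-type and 6.83, 6.83 and 6.48 in deficient marrow, a difference of 1.01 ± 0.093 (SE). Xrcc1 spanned 7.90 to 8.66 (median 8.41), against 7.54 and 7.33, then 7.56, 7.40 and 7.18 in marrow, a difference of 0.96 ± 0.10 (SE). Parp2 was higher by 0.71, the mismatch gene Msh6 by 0.36, and Ogg1, which removes oxidised guanine, by 0.23. Lig1, the replicative ligase, was the 1 gene of this group that was lower, by 0.28 ± 0.062 (SE).

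The 3 nucleotide excision genes each gave another result. Xpc, which recognises distorted DNA, ranged from 7.17 to 7.94 in tumours (median 7.44), and read 8.003 and 8.68 in wild-type and 8.90, 8.62 and 7.19 in deficient marrow. Deficient marrow 3 lay at the low end of the tumour range and the other 4 above it. The difference was -0.83 ± 0.16 (SE), and -1.09 without that sample. This SE rests on 1 spread shared by both tissues, while the SD of Xpc was 0.17 in tumours and 0.69 in marrow. Ercc1, part of the nuclease that cuts 5' of the lesion, was higher in tumours by 0.41, although its probe sets were called in both directions. Xpa, the damage-verifying scaffold, was not called. It spanned 5.54 to 7.29 in tumours (median 6.67) and 7.30 and 6.56, then 6.67, 6.79 and 6.49 in marrow, with an interval of the difference from -0.45 to 0.22.

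**Figure D2:**
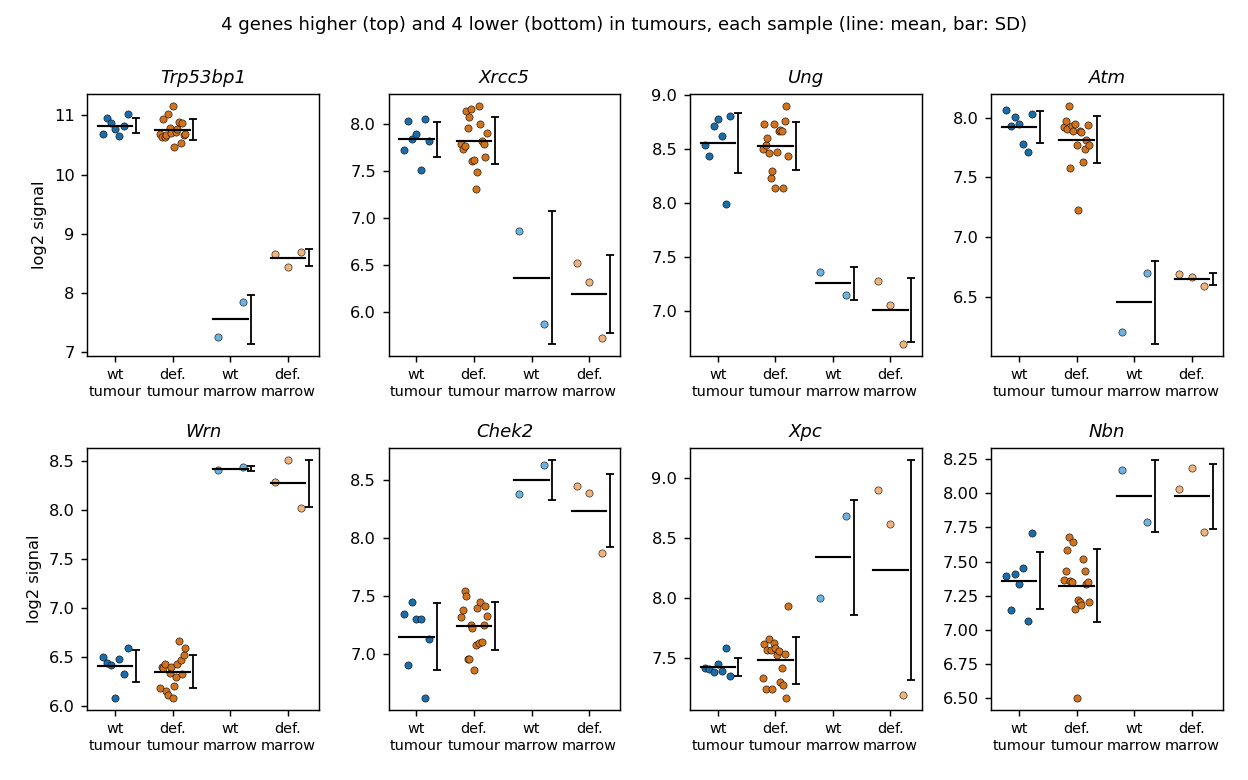
Log2 signal of 8 repair genes in each sample of the 4 groups (points; horizontal lines, group means; bars, SD). The top row shows genes higher in tumours, with no overlap between the tissues in Trp53bp1, Xrcc5, Ung and Atm; in the bottom row Xpc in deficient marrow 3 reads 7.19, inside the tumour range.

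Across the list, every tumour was above every marrow sample in 9 genes (20.9% of all genes did so), and below in 3 genes, Wrn, Chek2 and Nbn (16.9% of all genes). Fitted within each genotype, 24 genes were called in wild type and 27 in deficient samples, where 61.8% and 69.3% of all genes were. In both fits and in the same direction 20 were called, against 55.8% of all genes, so these counts were near the background. Of the 31 calls, 20 held in the same direction under each of the 12 alternatives run, including all those of 0.40 or more except Ercc1. Those that depended on a single marrow sample were Rif1, Mre11a and Blm (wild-type 1), Fancc, Xrcc6 (wild-type 2 or deficient 3) and Ogg1 (wild-type 2 or deficient 1). Brca2 was called without deficient 2, and Xrcc3 without wild-type 2 or deficient 3. The centring of the arrays set part of the balance: with all arrays at the same median, every tumour minus marrow difference was 0.29 lower, and 11 genes were called higher and 20 lower (35.5% of the calls higher, against 58.1%). Of all genes, 25.9% were then called higher and 58.3% lower. Under that scaling the MRN genes stayed lower in 3 of 3 cases and the Fanconi group was lower in 5 of 5. Recombination genes were lower in 7 of 9, base excision and mismatch genes higher in 5 of 8, and damage-signalling genes higher in 3 of 6. The differences of Ogg1 and Fancd2 turned negative. The genes not called before the shift, Brca2, Palb2, Rad52, Xrcc3, Fancd2, Rad18 and Xpa, were all called lower after it. Chek1, Rif1, Rad54l, Xrcc6, Msh6, Ercc1 and Ogg1 lost their call as higher. Among the 17 genes with more than 1 probe set of signal 5 or above, 11 had probe sets of the same sign throughout. The others were Rif1, Mre11a, Brca1, Fancc, Rad18 and Ercc1.

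Markers of several cell types differed between the tissues. All 11 sympathoadrenal markers were higher in tumours, and all 12 neutrophil and all 8 leukocyte markers, and 8 of 9 erythroid markers, were lower. The summed log2 level of the neutrophil list was 44.3 to 59.8 in tumours and 139 to 143 in marrow, and that of the sympathoadrenal list 109 to 119 and 42.8 to 44.8. Of the cell-cycle genes, 16 of 27 S-phase genes were lower in tumours (median of the list -0.44), and 14 of 31 mitotic genes were lower while 11 were higher (median -0.16). Macrophage and endothelial list means overlapped: they were 6.33 to 8.99 and 4.73 to 6.62 in tumours, and 7.84 to 8.71 and 5.27 to 5.57 in marrow. The part of cell composition and of cycling in the differences of repair genes was not tested. Deficient marrow 3 had the lowest B-cell list mean of the marrow samples, 5.29, against 5.49 to 7.96 in the others.

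Further repair genes, a list of 99 measured beside the 38, also differed in both directions, 45 called higher and 34 lower in tumours, with a median of 0.11. Of all genes, 34.2% were called higher and 42.2% lower, with a median of -0.10. The largest increases were in Alkbh2 (1.64), an enzyme that reverses alkylation, Rad54b (1.52), Apex1 (1.50), the main abasic-site endonuclease, and the nucleotide excision genes Gtf2h4 (1.43) and Ercc5 (1.42). The largest decreases were in Dclre1b (-2.33), a nuclease acting at telomeres and crosslinks, Ddb2 (-1.69), a sensor of ultraviolet damage, the bypass polymerase gene Polh (-1.30), Rad51c (-1.27) and Neil3 (-1.19). The genes of this list with a Fanc symbol went both ways. Fance, Fancm and Fancb were called higher in tumours within each genotype, Fancl and Fancg were called lower, and Fancf was not called.

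Caspase-8 status left no called difference in the repair genes of tumours. None of the 38 genes was called between 17 deficient and 7 wild-type tumours, and of all genes 0.00% were called by limma. At an unadjusted p under 0.05 there were 583 genes in all and 0 repair genes. The 95% intervals of all 38 differences lay within 0.5 log2 units of 0, the farthest bound being -0.49 for Xpa. The median difference was 0.0059 for the repair genes and 0.0042 for all genes.

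The 4 repair genes with the smallest p still had overlapping ranges between genotypes. Xpa ranged from 6.41 to 7.29 in wild-type tumours (median 6.72) and from 5.54 to 7.04 in deficient ones (median 6.63), a difference of -0.19 ± 0.14 (SE). Atm ranged from 7.71 to 8.06 (median 7.94) and from 7.23 to 8.10 (median 7.89), a difference of -0.11 ± 0.082 (SE). Neither shift exceeded the spread within a genotype. Ercc1 lay between 8.43 and 8.76 in wild-type tumours (median 8.65) and between 8.42 and 9.19 in deficient tumours (median 8.69), 0.099 ± 0.079 (SE) higher. For Lig4 the wild-type tumours covered 5.34 to 6.74 (median 6.21) and the deficient tumours 5.85 to 6.68 (median 6.39), 0.16 ± 0.13 (SE) higher. The limma adjusted p was 0.9997 for each of the 4 genes. Tumours carry title numbers in a lower and a higher series whose meaning is not given, and no repair gene was called within either. RNA integrity, read as the log2 excess of 3' over 5' control probes, was 0.616 ± 0.145 (SD) in wild-type and 0.761 ± 0.175 (SD) in deficient tumours, and with it as a term no repair gene was called.

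In bone marrow 0 of the 38 genes were called between 3 deficient and 2 wild-type samples, where 0.0220% of all genes were. The median width of the 95% interval to each side was 0.47, so that only large differences could have been detected with 5 samples. Trp53bp1 was the only repair gene with an unadjusted p under 0.05. Its deficient marrow samples, at 8.66, 8.43 and 8.69, were all above the wild-type ones at 7.26 and 7.85, by 1.04 ± 0.23 (SE; p = 0.0019, limma adjusted p = 0.9996). Next came Lig4, at 5.70, 6.01 and 5.52 against 5.21 and 5.48, a difference of 0.40 ± 0.21 (SE) in which the groups were narrowly separate. Blm read 8.80, 8.63 and 8.60 in deficient against 9.13 and 8.86 in wild-type marrow, a difference of -0.32 ± 0.19 (SE). Parp1 read 8.77, 8.88 and 8.81 against 9.05 and 9.15, a difference of -0.28 ± 0.17 (SE). In both genes all deficient samples were below the wild-type ones, without passing the threshold. Separate groups are common by chance with 3 against 2 samples, and these genes were named for their small p. The share of all genes with separate marrow genotypes was not counted.

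Trp53bp1 was also the 1 repair gene of 38 whose genotype difference was called as unlike between the tissues, where 0.319% of all genes were. In tumours the deficient samples (median 10.70, 10.46 to 11.17) and the wild-type samples (median 10.82, 10.66 to 11.02) overlapped. The difference in tumours minus that in marrow was -1.11 ± 0.19 (SE; limma adjusted p = 0.0033). That fit shares 1 spread over the 4 groups. The SD of Trp53bp1 was 0.16 over the tumours, 0.42 in wild-type marrow and 0.14 in deficient marrow. In the fit of marrow alone the genotype difference had an SE of 0.23 and a limma adjusted p of 0.9996. The marrow genotypes were also separate in the second Trp53bp1 probe set, with 6.57 and 7.04 for wild-type samples against 8.12, 7.45 and 7.78 for deficient ones. That probe set reads the same gene in the same marrow samples, so it is no independent check. In the third, 1 wild-type sample at 6.23 exceeded 1 deficient sample at 6.20. The call was lost without wild-type marrow 1 (-0.81, limma adjusted p = 0.119) and with the mean of all probe sets (-0.68, limma adjusted p = 0.162). The next genes were Blm (0.38 ± 0.18, SE) and Prkdc (-0.42 ± 0.23, SE), neither called.

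**Figure D3:**
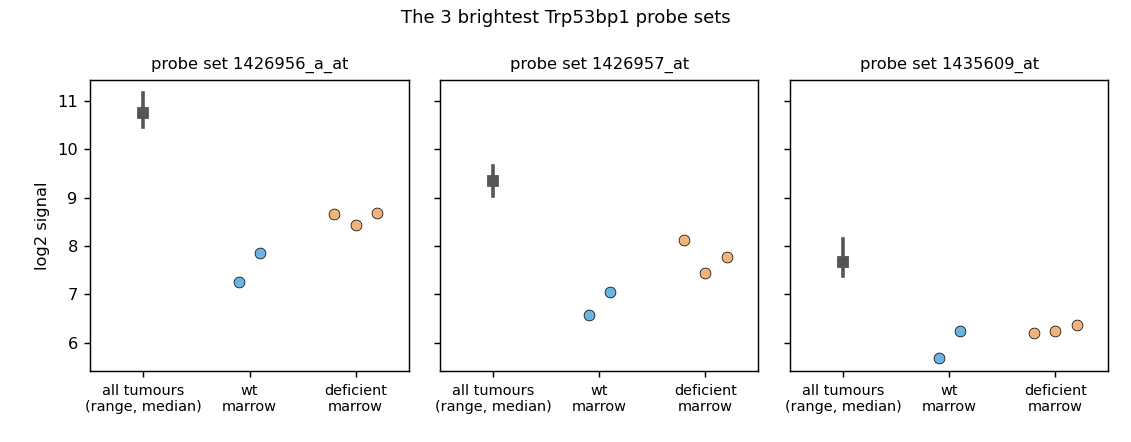
Log2 signal of the 3 brightest Trp53bp1 probe sets: range and median of the 24 tumours (grey line and square) and each marrow sample by caspase-8 label (circles). Tumours exceed marrow in each panel; the marrow genotypes separate in the left and middle panels and overlap in the right one.

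Among the tumours themselves, repair genes varied about as much as other genes, with a median SD of 0.196 over 24 tumours against 0.194 for all genes. How each gene moved with cell-cycle genes was read by regression on the mean of 58 S-phase and mitotic genes. None of the 58 was a repair gene of the list, and genotype was a second term. The slope is the log2 change of the gene per log2 unit of that mean, and 12 of 38 genes had a called positive slope (31.6%, against 4.37% of all genes) and 0 a called negative one (2.40% of all genes). The median slope was 0.72 for the repair genes and 0.051 for all genes, and 33 of the 38 slopes were above 0. The mean of the cell-cycle genes lay between 9.38 and 9.87 in tumours. Wild-type tumours averaged 9.61 ± 0.12 (SD, n = 7) and deficient ones 9.67 ± 0.13 (SD, n = 17), with a two-sided exact permutation p of 0.322.

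**Figure D4:**
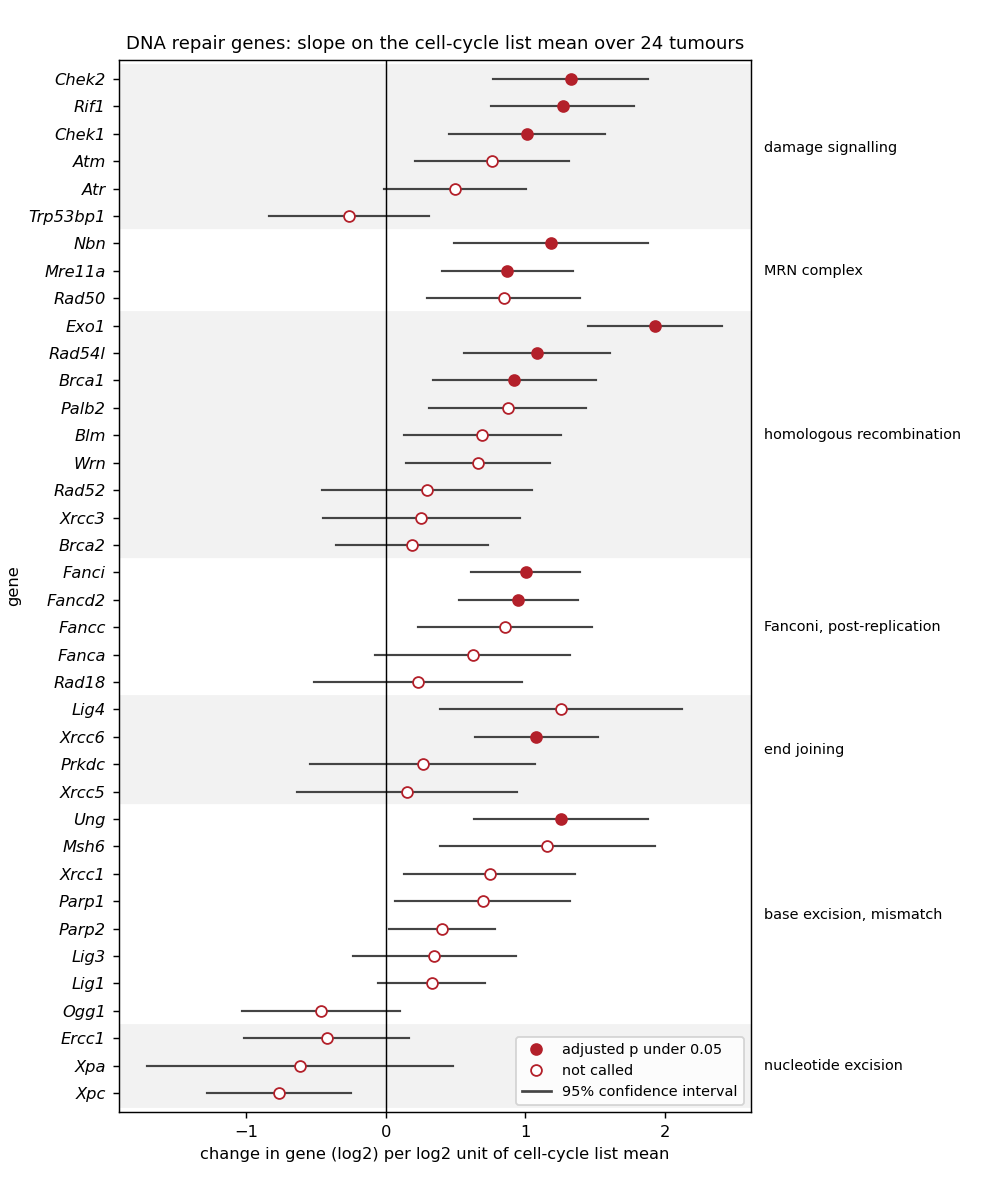
Slope of each of the 38 repair genes on the mean log2 signal of 58 cell-cycle genes over 24 tumours (points; lines, 95% confidence intervals; genotype is a term of the fit), grouped by role; filled points passed the limma threshold. Exo1 has the largest slope, 1.93, and the 3 nucleotide excision genes lie left of 0.

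Exo1 had the steepest slope and ranked 2 by p among 18135 genes tested. Its signal ranged from 8.02 to 9.23 over the tumours (median 8.78), and the slope was 1.93 ± 0.23 (SE; limma adjusted p = 0.00012). Then came Chek2 (1.32 ± 0.27, SE), Rif1 (1.27 ± 0.25) and Ung (1.26 ± 0.30). Nbn followed with 1.18 ± 0.34 (SE), although 1 tumour, deficient 9, lay far below the rest at 6.50, and without it and wild-type tumour 6 the slope was 0.46. Rad54l and Xrcc6 had slopes of 1.08 each, and Chek1 of 1.01 ± 0.27 (SE). The remaining calls were Fanci (1.003), Fancd2 (0.95), Brca1 (0.92) and Mre11a (0.87). Brca1 passed only just (limma adjusted p = 0.04996), and was called in 8 of the 36 alternatives run. The other 11 were called in 28 (Nbn) to 35 (Exo1) of the 36, and none of the 12 in every one. Of these 36, 24 each left out 1 of the 24 tumours and so shared nearly all samples with the main fit.

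The called slopes included 3 of 6 damage-signalling genes, 2 of 3 MRN genes, 3 of 9 recombination genes, 2 of 5 Fanconi and post-replication genes, 1 of 4 end-joining genes and 1 of 8 base excision and mismatch genes. The 3 nucleotide excision genes of the list all had slopes below 0, none of them called. Xpc had -0.76 ± 0.25 (SE, limma adjusted p = 0.066), Xpa -0.62 and Ercc1 -0.42. The other slopes below 0 were those of Ogg1 (-0.47) and Trp53bp1 (-0.26). Nearest 0 were Xrcc5 (0.15) and Brca2 (0.19). The tissue difference and the slope did not always point the same way. Chek2, Nbn, Fanci, Mre11a and Brca1 were lower in tumours than in marrow and had called positive slopes among tumours. The slopes of Trp53bp1 and Xrcc5, the genes with the largest increases in tumours, were not called.

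**Figure D5:**
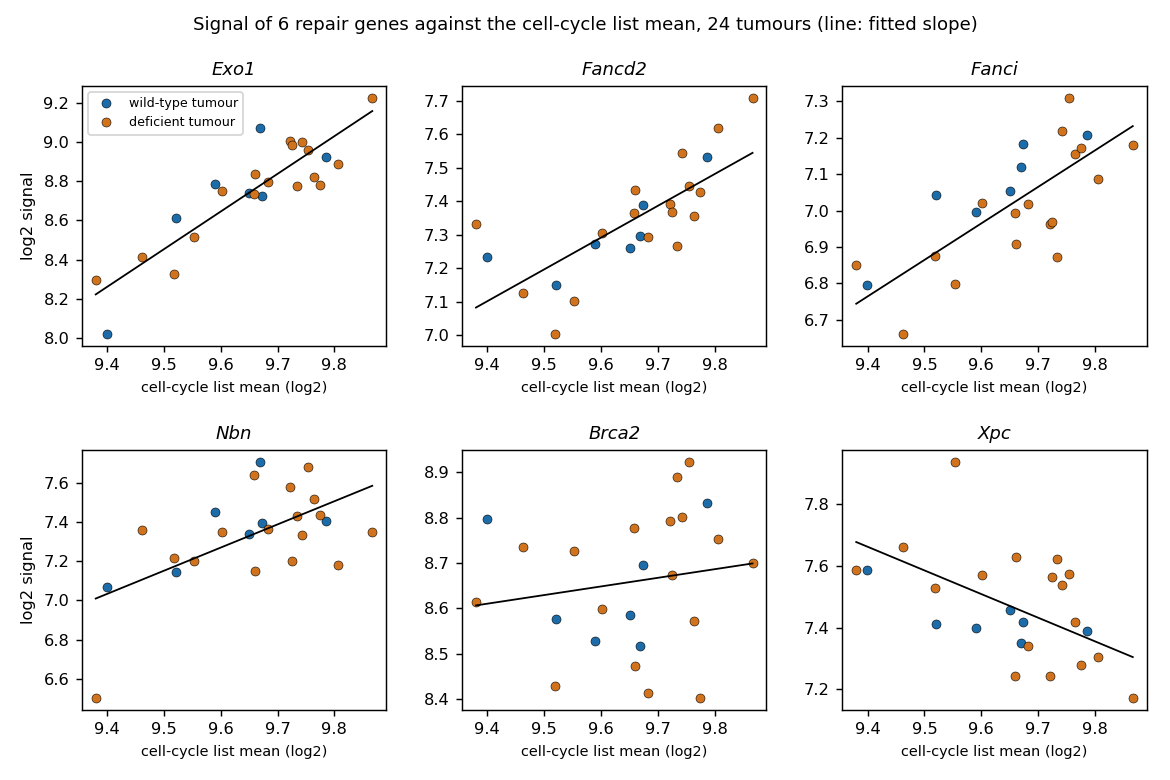
Log2 signal of 6 repair genes against the mean log2 signal of 58 cell-cycle genes in 24 tumours (blue, wild type; orange, deficient; lines, fitted slopes drawn through the overall mean). Exo1, Fancd2 and Fanci follow the cell-cycle mean, Nbn does so with 1 tumour far below at 6.50, Brca2 has a slope of 0.19, and Xpc falls.

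The number of calls depended on the tumours with the lowest cell-cycle mean. Without the 2 tumours farthest from the median, deficient 9 at a cell-cycle mean of 9.38 and wild-type 6 at 9.40, only Exo1 (1.74), Fancd2 (1.45) and Fanci (1.15) were still called, where 0.430% of all genes were. Leaving out either of them alone gave 8 calls. Within the 14 tumours of the higher title series 5 genes were called, Exo1, Nbn, Chek1, Fanci and Msh6, against 1.23% of all genes. Within the 10 of the lower series 0 repair genes and 0.00% of all genes were called. With the mean of all probe sets of a gene 7 were called, against 2.83% of all genes. On the same cell-cycle mean the median slope was 2.41 for 8 stromal markers (2 called), 1.90 for 8 leukocyte markers (0 called), 1.73 for 8 macrophage markers (1 called), 1.47 for 8 endothelial markers (0 called) and -0.65 for 11 sympathoadrenal markers (0 called). Their part in the slopes of the repair genes was not tested.

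Of the 99 further repair genes 22 had a called positive slope and 0 a called negative one, where 4.37% and 2.40% of all genes had one. Their median slope was 0.47, against 0.051 for all genes. Several genes with a called slope also serve DNA replication, among them Rfc3, Rfc4, Rfc5, Rpa1, Rpa2, Rpa3 and Fen1. The largest slopes were those of Alkbh2 (1.70), the single-strand binding subunit Rpa3 (1.59), the checkpoint clamp subunit Hus1 (1.51), the Fanconi ligase partner Ube2t (1.50) and the mismatch gene Pms1 (1.47). Nucleotide excision genes of this list lay on both sides of 0. Rad23b (0.93) and Ercc8 (0.67) had called positive slopes. Gtf2h4, Ercc3 and Cetn2 were above 0 and Ddb1, Ddb2, Ercc2, Ercc4, Ercc5, Ercc6 and Gtf2h1 below it, none of them called.

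The promoters of the repair genes were searched for motifs linked to cell-cycle and MYC-family control. The sequences are those of RefSeq for GRCm38.p6, from 250 bases before to 30 after the annotated start, and 30 of the 38 genes were in the table. Shown first are the 3 genes with the largest called slope that the table holds, with Rad54l by the first of its 2 starts, then the 2 genes with the slope nearest 0. Capitals mark CCAAT, or ATTGG where it lies on the other strand, and the E-box CACGTG.
Chek2 (chr5:110839733-110840012, plus strand): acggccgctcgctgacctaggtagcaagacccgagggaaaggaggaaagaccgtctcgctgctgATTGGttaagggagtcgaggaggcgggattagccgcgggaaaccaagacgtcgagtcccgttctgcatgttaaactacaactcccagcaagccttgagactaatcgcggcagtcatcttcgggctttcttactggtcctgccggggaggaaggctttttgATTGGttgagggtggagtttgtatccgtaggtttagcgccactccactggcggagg
Ung (chr5:114130185-114130464, plus strand): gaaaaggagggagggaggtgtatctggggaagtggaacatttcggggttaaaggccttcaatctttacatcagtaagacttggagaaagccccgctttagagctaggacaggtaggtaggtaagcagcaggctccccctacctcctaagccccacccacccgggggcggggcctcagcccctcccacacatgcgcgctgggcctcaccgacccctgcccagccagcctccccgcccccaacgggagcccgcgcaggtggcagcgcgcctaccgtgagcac
Rad54l (chr4:116123661-116123940, minus strand): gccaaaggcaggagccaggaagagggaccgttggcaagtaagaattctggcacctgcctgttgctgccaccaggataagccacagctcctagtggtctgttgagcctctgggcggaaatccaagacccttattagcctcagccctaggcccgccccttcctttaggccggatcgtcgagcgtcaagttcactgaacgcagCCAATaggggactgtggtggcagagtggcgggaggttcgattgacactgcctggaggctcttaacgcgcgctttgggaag
Xrcc5 (chr1:72307171-72307450, plus strand): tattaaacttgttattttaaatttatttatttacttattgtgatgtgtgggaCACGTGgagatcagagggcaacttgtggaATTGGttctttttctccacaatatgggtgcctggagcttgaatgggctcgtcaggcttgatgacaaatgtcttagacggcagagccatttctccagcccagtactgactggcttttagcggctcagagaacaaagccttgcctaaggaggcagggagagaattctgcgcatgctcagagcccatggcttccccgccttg
Brca2 (chr5:150522371-150522650, plus strand): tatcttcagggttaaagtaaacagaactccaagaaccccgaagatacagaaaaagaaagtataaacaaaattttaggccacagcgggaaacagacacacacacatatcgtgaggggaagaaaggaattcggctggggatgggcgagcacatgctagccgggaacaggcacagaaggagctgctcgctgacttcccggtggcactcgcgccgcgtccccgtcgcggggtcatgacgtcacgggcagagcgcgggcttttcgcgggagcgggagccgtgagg

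The CCAAT box, bound by NF-Y, was found on the opposite strand of the Chek2 promoter 186 and 26 bases before the start, and on the gene's own strand 50 bases before the start of Rad54l. Xrcc5 held it 169 bases before its start, with an E-box at 198, so the letters were present on both sides of the comparison. Ung and Brca2 held none of the motifs searched. In all, 15 of 30 repair genes held CCAAT on either strand, against 36.6% of 27025 genes with a promoter, and 4 of the 8 with a called slope did. The E-box CACGTG, the site of MYC-family proteins, was in 4 of 30 (6.89% of all) and in 0 of the 8. The E2F sites TTTCGCGC and TTTGGCGC were in 0 of 30 (0.770% of all genes held either), and TTTGAA, the core of the cell-cycle homology region, was in 0 of 30 (17.4% of all). A match describes letters only, and the search covered exact letters within this window.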

How the data were processed

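The deposited table holds log2 values of 29 arrays that the authors made with RMA in Partek 6.6, per the submitters' processing notes. The labels do not say if the arrays were normalized in 1 run. Trizol RNA (100 ng) was used, per the labels' protocols. In RMA low signals are compressed and a shift shared by most genes is lost. Precision is limited by the number of arrays. Of 45101 probe sets, 34945 had 1 gene symbol, and the one of highest mean stood for each of 18193 genes. Samples were grouped by their genotype and tissue labels.

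Differences were tested with R 4.3.3 and limma 3.58.1 (lmFit, eBayes, two-sided, adjusted over all genes): a model of 4 groups for tissue and interaction, and separate fits for genotype within tumours and within marrow. Slopes were fitted over 24 tumours with genotype as a term. The scripts were tested on simulated data. The members, gene lists and rules were chosen with earlier results of these data known. Full values were given for the 8 largest called tissue differences each way and every uncalled member, the 4 genes of smallest p for genotype and the 3 for the interaction. Slopes were named for the called genes, and for further repair genes the 5 largest called values. Alternatives covered probe sets, low signals, centring, variance prior, array weights, title series and samples left out.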

Additional observations from a re-analysis of the deposited data

Results flagged for a closer look

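A group of 4 to 10 samples was available for a check of single samples only in the 7 wild-type tumours, where a lone value counted if its gap to the next was large for the range of the group. Chance alone flags about 1 in 20 groups, and 3 of the 38 genes were found. Wild-type tumour 6 was low for Rif1, at 9.06, and for Xrcc1, at 7.94; it is also 1 of the 2 tumours with the lowest cell-cycle mean. Wild-type tumour 3 was high for Fancc, at 6.58. The genotype difference of Trp53bp1 in tumours minus that in marrow was -1.11. The limma test of this difference between the tissues passed its threshold in the fit that shares 1 spread over the 4 groups.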

How the results depend on the processing

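Only 2 wild-type and 3 deficient marrow samples carry the tissue, marrow and interaction results, and the marrow samples all belong to the higher title series. No paired analysis was possible because the labels give no replicate numbers that groups share. Arrays shifted to the same median gave 11 genes higher and 20 lower in tumours, and turned Fancd2 (-0.23) and Ogg1 (-0.059), since every difference is moved by the same amount. The mean of all probe sets turned the tissue differences of Fancd2 (-0.15), Xrcc6 (-0.021) and Xpa (0.040), turned the slopes of Atr (-0.44) and Trp53bp1 (0.34), left 7 called positive slopes and 0 called interactions. Array weights turned Palb2 (0.0010), and omission of wild-type marrow 1 turned Xpa (0.067; -0.30 to 0.067 over the marrow samples left out) and left 0 called interactions. Leaving out 1 marrow sample gave 16 to 18 genes higher and 10 to 14 lower, and 0 to 1 called interactions.

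Leaving out 1 tumour at a time, an alternative chosen after seeing the data, gave 8 to 13 called positive slopes and 0 to 1 negative ones (Xpa, without deficient tumour 10). Xpc was the 1 negative call with genes of mean signal of at least 5, and with the mitosis list alone. Called positive slopes numbered 3 without the 2 tumours farthest from the median, 0 in the lower and 5 in the higher title series. Slopes that turned were, in the lower series, Chek1 (-0.072) and Xrcc5 (-0.51); in the higher series, Brca2 (-0.0077); without the 2 farthest tumours, Trp53bp1 (0.14), Ogg1 (0.052) and Xpa (0.13); and without deficient tumour 9, Trp53bp1 (0.12), Rad18 (-0.014) and Xrcc5 (-0.042). Over all single tumours left out, the slope ran from -0.42 to 0.12 for Trp53bp1, from -0.014 to 0.59 for Rad18 and from -0.089, without deficient tumour 10, to 0.35 for Xrcc5. The genotype difference of Xpa in tumours turned in the lower series (0.038). The causes were not tested. No alternative called a repair gene between genotypes in tumours or in marrow.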
